A study of Mus musculus with 6 samples.

Results

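The genes described here are Meis1, Meis2, Meis3, Pbx2 and Pbx3, 5 of the 21701 protein-coding genes with a unique symbol in the annotation. They were chosen by name, as factors associated with the proximal limb, and every called region that lay over a gene body or within 50 kb of its annotated 5′ end on mm10 was assigned to that gene. The samples came from E12.5 mouse embryos, wild type and of the strain B6CBAF1, whose forelimb buds had been divided into the distal part that forms the hand (DFL) and the proximal part that forms the arm (PFL). ChIP-seq was done on both parts for H3K27me3, which Polycomb complexes place on repressed genes, for H3K27ac, which lies on promoters and enhancers in use, and for CTCF, which holds chromatin loops in place. Another 2 peak lists, for HOXA13 and HOXD13 (together HOX13) in whole forelimb buds at E11.5, belonged to no sample of the series. The labels describe the libraries as re-analysed from earlier work.

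MEIS and PBX proteins are homeodomain factors of the TALE class. They bind DNA together with each other and with HOX proteins, and they are imported or retained in the nucleus as complexes. In the limb bud Meis1 and Meis2 are known as genes of the proximal part, induced by retinoic acid from the flank and kept out of the distal mesenchyme, where the posterior HOX proteins are made. HOXA13 and HOXD13 are the homeodomain factors of the hand plate.

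Each mark had 1 library from each piece. No difference below was therefore tested, and library and piece cannot be told apart. All intervals are 95% intervals that cover counting error only. H3K27ac gave 59804 regions in DFL and 69503 in PFL, H3K27me3 9083 and 13873, CTCF 54673 and 52801, and the HOXA13 and HOXD13 lists held 66761 and 52660. The lowest local background, taken here as a measure of depth, was 12.49 fragments in DFL and 11.88 in PFL for H3K27ac. It was 3.06 and 4.75 for H3K27me3, and 6.47 and 7.31 for CTCF. The paper lists more sequenced reads in PFL than in DFL for each of these marks, so for H3K27ac the 2 measures differ in order. H3K27me3 had the lowest depth and the widest gap between pieces. Of 10 distal limb markers, H3K27ac covered at least 1.5 times more of the window in DFL for 5 and in PFL for 2, and of 10 proximal markers for 2 and 4. Over all genes tested 3.17% did so in DFL and 16.9% in PFL. Hoxa13, the defining gene of the hand plate, had 24968 bp of H3K27ac in DFL against 14774 bp in PFL, and Shox2, a gene of the proximal limb skeleton, 1519 bp against 5533 bp. The distal markers higher in PFL were Sall1 and Sall3. The proximal markers higher in DFL were Hoxa9, with 24417 bp against 15540 bp, and Hoxa11, with 24599 bp against 15570 bp. Both are close to the values of Hoxa13, their neighbour in the HoxA cluster, because the windows of these genes overlap and hold largely the same regions. Hoxd9, Hoxd12 and Hoxd13 are neighbours in the same way. These markers are therefore not independent, and the counts of distal and proximal markers include the same stretches repeatedly. Promoters of 2 of 7 muscle markers carried H3K27ac in DFL, against 6 of 7 in PFL, and of 6 ectoderm markers 6 did in DFL, against 2 in PFL. For endothelium it was 5 of 5 markers in DFL and 4 of 5 in PFL, and for blood 3 and 2 of 5. For nerve and glia it was 2 and 2 of 6, and for cartilage 6 and 6 of 6. Of all 21701 genes, 12843 carried H3K27ac at the promoter in DFL and 13371 in PFL. Muscle and ectoderm markers thus differed most between the pieces, and their part in the values below was not tested. In tissue of this kind, fewer cells carrying a mark and less of the mark per cell cannot be told apart.

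Meis1 lies on chr11:18879817-19018985 on the minus strand, and its window of 189.2 kb held no other protein-coding gene. Meis2, on chr2:115863064-116065839 on the minus strand, also had its window of 252.8 kb to itself. Meis3, on chr7:16175090-16186504 on the plus strand, shared its window with Kptn, Slc8a2 and Dhx34. Pbx2, on chr17:34591266-34597400 on the plus strand, shared its window with 8 coding genes, among them Notch4, Rnf5, Agpat1 and Ppt2. Pbx3, on chr2:34171457-34373142 on the minus strand, shared its window of 251.7 kb with Mapkap1 alone. Regions at the promoters of those neighbours are counted in the windows and named as such below.

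The strongest HOX13 region of each window, by fold enrichment, is shown here because HOXA13 around Meis1 and Meis2, and HOXD13 around Pbx3, had more regions than any other list. Each sequence is the summit base of mm10 with 50 bases on each side, written in the direction of the gene. Capitals mark the HOX13 motifs CAATAAA and TCGTAAA on either strand. They also mark ATAAA, the core of CAATAAA but not of TCGTAAA, which was added after the sequences had been seen.
Meis1 HOX13 site, chr11:18917066-18917166, minus strand: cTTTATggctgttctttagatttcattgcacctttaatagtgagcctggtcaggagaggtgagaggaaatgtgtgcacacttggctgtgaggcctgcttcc
Meis2 HOX13 site, chr2:115869221-115869321, minus strand: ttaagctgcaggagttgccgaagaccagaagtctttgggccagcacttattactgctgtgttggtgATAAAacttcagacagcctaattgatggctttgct
Meis3 HOX13 site, chr7:16174186-16174286, plus strand: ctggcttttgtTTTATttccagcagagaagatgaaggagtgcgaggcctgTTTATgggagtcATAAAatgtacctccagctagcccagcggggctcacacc
Pbx2 HOX13 site, chr17:34591826-34591926, plus strand: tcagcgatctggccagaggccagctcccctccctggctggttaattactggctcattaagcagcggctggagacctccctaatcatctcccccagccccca
Pbx3 HOX13 site, chr2:34244878-34244978, minus strand: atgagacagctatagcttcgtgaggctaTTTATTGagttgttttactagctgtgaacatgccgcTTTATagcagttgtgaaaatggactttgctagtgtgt
The full motif CAATAAA occurred in the Pbx3 sequence only, as TTTATTG at bases 29 to 35, and there its letters overlap the core. The core alone occurred 1 time in the Meis1 sequence, 1 time in Meis2, 3 times in Meis3 and 0 times in Pbx2. Over the HOXA13 list, 10.7% of such windows held CAATAAA, 2% TCGTAAA and 55.4% ATAAA, and over the HOXD13 list 11.9%, 1.84% and 58.7%. For comparison, ATAAA was found in 12.6% of the windows around DFL H3K27ac summits and in 14.4% of those around PFL H3K27ac summits. Neither the MEIS motif TGACAG nor the joint PBX-HOX motif TGATNNAT occurred in any of the 5 sequences. These motifs were in 6.08% and 5.02% of HOXA13 windows and in 5.67% and 4.96% of HOXD13 windows.

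**Figure D1:**
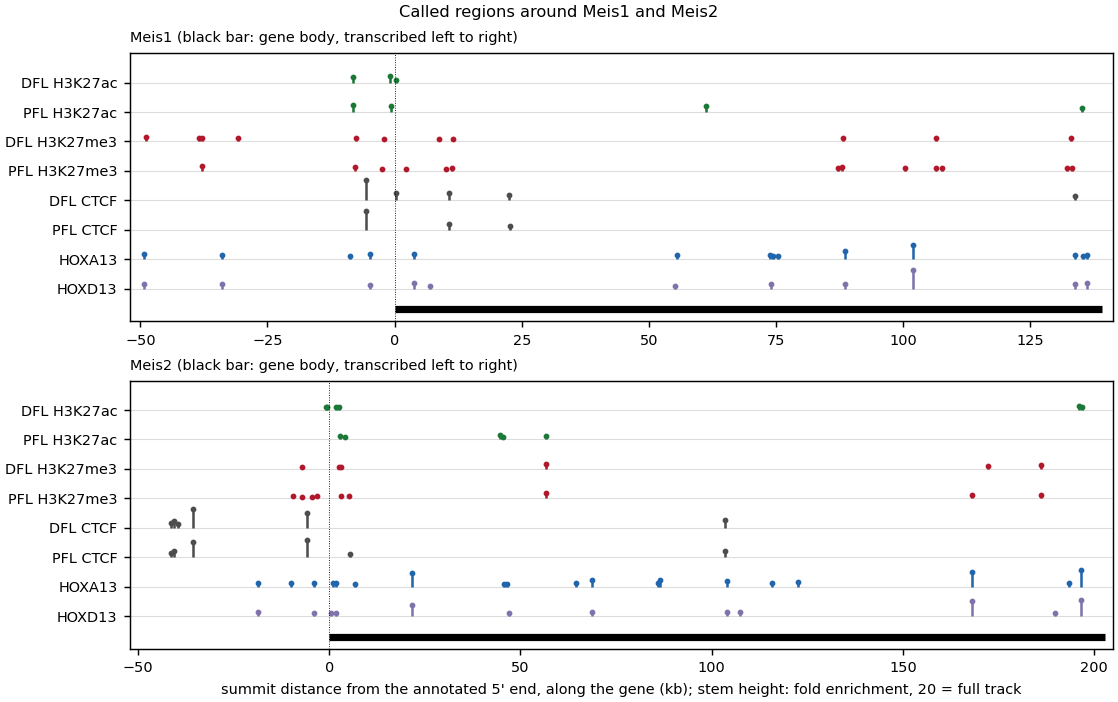
Regions of all 8 peak lists around Meis1 and Meis2, by distance of the summit from the annotated 5′ end in kb along the direction of transcription. Each stem is 1 region and its height is the fold enrichment over local background, with 20 as the full track. H3K27ac regions inside the gene bodies, away from the promoters, are called in PFL alone except at the far end of Meis2, and the tallest HOX13 stems stand deep inside both genes.

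Meis1 encodes a MEIS cofactor of HOX proteins. H3K27ac marked its promoter in both pieces and was weaker in DFL. Heights are given as multiples of the library's lowest local background. The strongest promoter region lay 0.84 kb upstream and reached 11.9 times background in DFL (10.02 to 13.92) against 17.5 times in PFL (15.2 to 20.1). The DFL to PFL ratio was 0.677 (0.544 to 0.839), below the median of 0.902 over all 41197 shared H3K27ac regions, and 14.4% of those had a lower ratio. The 2 intervals of height did not overlap. The only other shared region, 8.15 kb upstream, gave 4.08 times background in DFL and 5.64 in PFL, a ratio of 0.724 (0.493 to 1.06), with overlapping intervals.

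Inside Meis1, away from the promoter, H3K27ac was called in PFL alone. A region at chr11:18957568-18957928, in an intron 61.3 kb into the gene, had a fold of 4.50 and a height of 4.80 times background (3.63 to 6.22). A weaker region in a UTR exon 135.1 kb into the gene had a fold of 2.95. DFL had no call at either place. Counted over the whole window, H3K27ac covered 2.55 kb in 3 regions in DFL and 3.73 kb in 4 regions in PFL, which put 40.6% of it in DFL. The interval of the share by number of regions was 15.8% to 75.0%, so the numbers of regions set no direction.

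H3K27me3 lay on both sides of the Meis1 promoter and across the gene. It covered 7.58 kb in 11 regions in DFL and 9.24 kb in 13 regions in PFL, by length the most of the 5 genes in both pieces. As a part of the window, which differs in size, Meis3 had more in PFL, 5.87% against 4.89%. At 2 kb around the starts no H3K27me3 region was called in DFL and 1 was called in PFL, 2.32 kb into the gene by its summit. The nearest DFL region began 2027 bp from a start. The local background itself was high there. At the regions 2.16 kb upstream and 8.76 kb into the gene in DFL it was 15.9 and 15.5 times the lowest of the library, and at the PFL region 2.32 kb into the gene it was 13.1 times. The median over all H3K27me3 regions was 3.66 in DFL and 3.13 in PFL. The peak caller judges a summit against its surroundings, so a region in such a broad domain is called only where it stands above the domain. At the element 8 kb upstream, both H3K27ac and H3K27me3 were called in both pieces, and the H3K27me3 region there reached 27.1 times background in DFL and 21.9 in PFL.

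At 3 sites deep in the Meis1 gene the scaled summits of shared H3K27me3 regions were higher in DFL by more than counting error. At 88.1 kb the heights were 19.6 times background in DFL and 10.8 in PFL, a ratio of 1.82 (1.23 to 2.70). At 106.5 kb they were 12.7 and 6.11, a ratio of 2.08 (1.26 to 3.49), and at 133.0 kb 18.6 and 9.48, a ratio of 1.96 (1.30 to 2.97). Over all 7351 shared H3K27me3 regions the median ratio was 0.942, and 98.4% or more had a lower ratio than each of these 3. Their size rests on the scaling by the lowest background, since the summit pileups before scaling were 60 and 51 fragments, 39 and 29, and 57 and 45 in DFL and PFL, in the same order of sites. Against their local background the summits stood about equally high in both pieces. The folds were 2.54 and 2.67, 2.56 and 2.30, and 2.68 and 2.59 in DFL and PFL, again in that order. PFL also had 4 regions near these sites that DFL lacked, at 87.2, 100.4, 107.5 and 132.1 kb.

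CTCF was called at the Meis1 promoter in DFL alone, with a fold of 5.73 at 0.204 kb into the gene. The strongest CTCF site lay 5.64 kb upstream and was shared, at 24.4 times background in DFL (20.8 to 28.5) and 21.9 in PFL (18.6 to 25.5), with overlapping intervals. HOX13 regions were frequent, 14 for HOXA13 and 11 for HOXD13, or 7.40 and 5.82 per 100 kb, where the median gene had 2 and 2. The 90th percentile over genes was 6 and 5. The strongest, 102 kb into the gene and printed above, had a fold of 11.1 for HOXA13 and 14.0 for HOXD13, rank 1364 and rank 238 of the lists. No H3K27ac, H3K27me3 or CTCF region overlapped it. No HOX13 region lay within 2 kb of a Meis1 start.

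Meis2, the close relative of Meis1 with the same kind of partners, had a promoter that carried both marks in both pieces. The shared H3K27ac region 2.54 kb into the gene by its DFL summit, within 2 kb of an internal start, stood at 6.08 times background in DFL (4.79 to 7.62) and 6.99 in PFL (5.57 to 8.66). The ratio was 0.871 (0.629 to 1.203), close to the genome-wide median. DFL had another 3 H3K27ac regions at the starts that PFL lacked, 0.765 kb and 0.469 kb upstream and 1.76 kb into the gene, with folds of 2.35, 2.03 and 2.16. PFL had a region 4.03 kb into the gene that DFL lacked, with a fold of 1.92. All 4 are weak calls on a raised local background, which was 2.37 to 2.44 times the lowest of the library in DFL and 2.69 times in PFL.

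Away from the promoter the pieces differed in where Meis2 carried H3K27ac. PFL had 3 regions in the first part of the gene, at 44.6, 45.5 and 56.6 kb, with folds of 3.42, 2.096 and 2.72. DFL had none of these. DFL instead had 2 regions near the 3′ end, at 196.1 and 196.8 kb, with folds of 3.04 and 2.59 and heights of 3.20 (2.29 to 4.36) and 2.72 (1.89 to 3.80) times background, and PFL had no call there. The strongest HOX13 region of the window, printed above, lay between and over the ends of these 2 DFL regions. Its fold was 12.9 for HOXA13 and 12.6 for HOXD13, rank 529 and rank 604. The summed covered length was almost even all the same, 3.14 kb in DFL and 3.41 kb in PFL, so that DFL held 47.9% of it.

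A further 2 strong HOX13 regions lay in Meis2 introns, at 168.1 kb with folds of 10.9 and 11.3 and at 21.7 kb with folds of 10.5 and 8.84 for HOXA13 and HOXD13. The first of them overlapped an H3K27me3 region called in PFL alone, with a fold of 2.51, and the other overlapped no region of the 6 samples. H3K27me3 covered 3.09 kb in DFL and 5.19 kb in PFL, so that DFL held 37.3% of it. At the region 2.69 kb into the gene, which overlaps H3K27ac, its height was 27.7 times background in DFL and 26.3 in PFL, a ratio of 1.05 (0.790 to 1.398). At the PFL-only H3K27ac region 56.6 kb into the gene H3K27me3 was called in both pieces, at 11.4 times background in DFL and 8.22 in PFL, so that both marks lay on it in PFL. CTCF was called 6 times in each piece. The strongest site in DFL lay 35.6 kb upstream at 23.5 times background in DFL and 18.2 in PFL, a ratio of 1.29 (1.02 to 1.64), and the strongest in PFL lay 5.81 kb upstream at 15.2 in DFL and 19.4 in PFL, a ratio of 0.780 (0.597 to 1.02). The median over 48279 shared CTCF regions was 1.10.

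**Figure D2:**
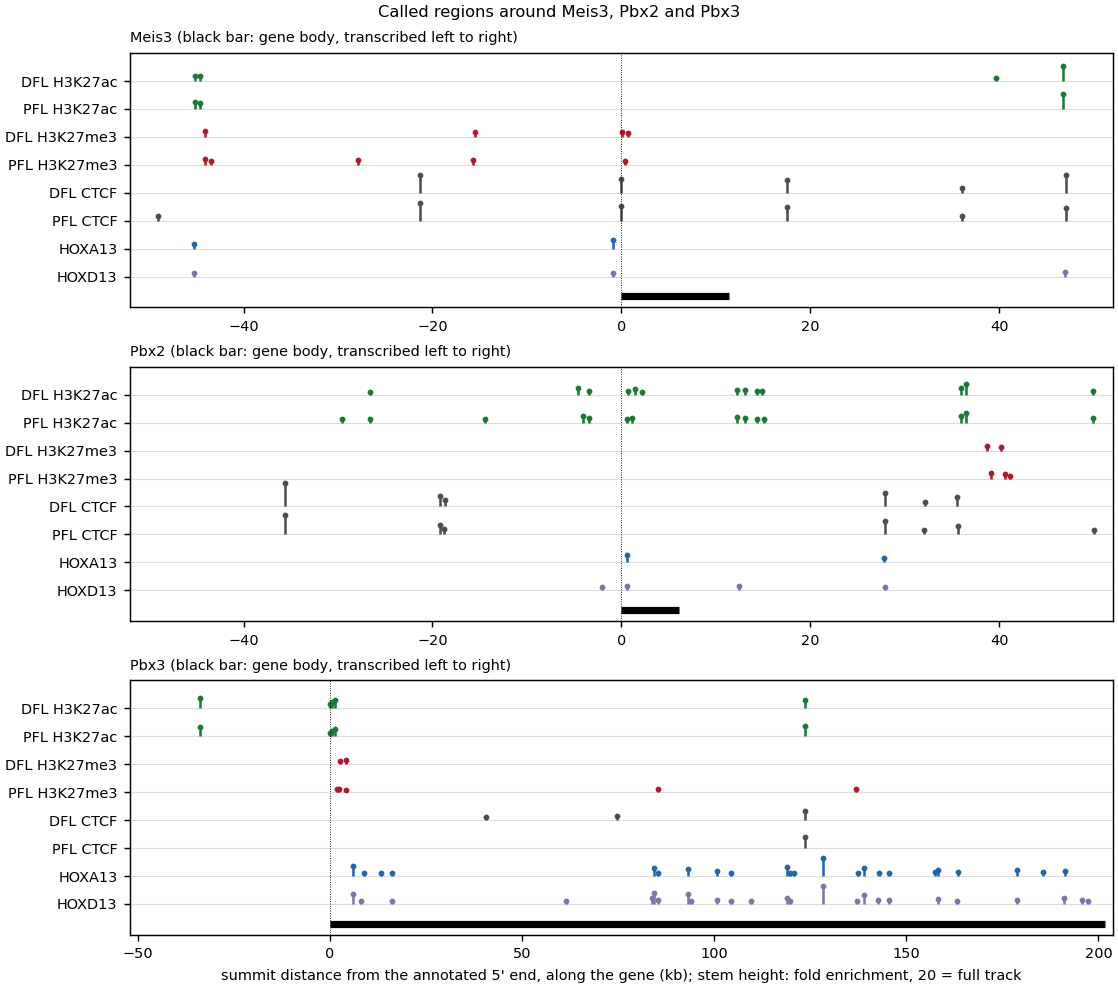
Regions of all 8 peak lists around Meis3, Pbx2 and Pbx3, drawn with summit distance from the 5′ end in kb on the horizontal axis and fold enrichment as stem height, 20 being the full track. Meis3 shows H3K27me3 and CTCF but no H3K27ac at its start, Pbx2 shows H3K27ac without H3K27me3 at its start, and Pbx3 shows rows of HOX13 stems across the gene body.

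Meis3, the third MEIS gene, carried no H3K27ac on its body or promoter in either piece. Its promoter was covered by H3K27me3 in both, with 2 regions in DFL and 1 in PFL, at 14.0 times background in DFL (10.2 to 18.9) and 14.5 in PFL (11.3 to 18.4), a ratio of 0.965 (0.644 to 1.43). Such promoters, with H3K27me3 and no H3K27ac in both pieces, made up 6.01% of all genes. A CTCF site stood at the 5′ end itself, with a height of 14.99 times background in DFL (12.2 to 18.3) and 14.8 in PFL (12.1 to 17.8), a ratio of 1.02 (0.764 to 1.35). The H3K27ac of the window, 4 regions in DFL and 3 in PFL, lay at the promoters of Slc8a2 and Dhx34 and in a Dhx34 intron. Over the window H3K27me3 covered 3.34 kb in DFL and 5.87 kb in PFL, and the difference was at sites in Slc8a2 and in the length of the promoter region. The HOX13 region at the Meis3 promoter, 0.854 kb upstream, had a fold of 6.62 for HOXA13 and 2.99 for HOXD13.

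Pbx2, a PBX gene active in most tissues, carried H3K27ac at its promoter in both pieces and no H3K27me3 there. The strongest promoter region stood at 18.2 times background in DFL and 19.7 in PFL, a ratio of 0.923 (0.765 to 1.11), and a second, 0.66 kb into the gene, at 13.8 and 17.3, a ratio of 0.794 (0.645 to 0.977). Both ratios lie near the genome-wide median of 0.902. The HOX13 region of the promoter, 0.61 kb into the gene, fell on the second of these. It had a fold of 6.05 for HOXA13 and 3.44 for HOXD13. This HOX13 region and the second H3K27ac region also lay within 2 kb of a start of the neighbour Gpsm3. Most of the 13 H3K27ac regions of the window in DFL and 14 in PFL lay at neighbours, namely Notch4, Gpsm3, Rnf5, Agpat1, Ppt2 and Prrt1. The region with the lowest ratio of the window, 0.505 (0.371 to 0.683), lay 49.96 kb downstream of the Pbx2 start, outside its gene body. H3K27me3 was found only over Prrt1. The CTCF site 35.6 kb upstream was the highest of the 5 windows, at 36.9 times background in DFL (32.4 to 41.9) and 29.5 in PFL (25.7 to 33.7).

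Pbx3, a PBX gene whose product also pairs with MEIS and HOX proteins, showed the same H3K27ac regions in both pieces. All 5 regions of each piece were shared. At the promoter they stood at 12.6, 9.45 and 6.80 times background in DFL and 14.5, 9.93 and 7.16 in PFL, with ratios of 0.868, 0.951 and 0.951 whose intervals all contain the genome-wide median. An intronic region 123.5 kb into the gene, which also held the only shared CTCF site, stood at 9.53 times background in DFL and 11.3 in PFL, a ratio of 0.845 (0.654 to 1.09). The fifth was the Mapkap1 promoter. H3K27me3 lay on the gene side of the promoter, with 2 regions over 1.29 kb in DFL and 5 regions over 1.93 kb in PFL. Of these 3 were called in PFL alone, at 1.90 kb with a fold of 2.85 and a height of 10.3 times background, and in introns at 85.3 and 136.9 kb. The 2 shared regions had the higher heights in DFL. At 4.15 kb into the gene it reached 17.0 times background in DFL and 7.38 in PFL, a ratio of 2.30 (1.47 to 3.64), and 99.6% of shared regions had a lower one. At 2.60 kb the ratio was 1.35 (0.859 to 2.103), an interval that includes 1.

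HOX13 regions were denser over Pbx3 than over the other members, with 23 for HOXA13 and 25 for HOXD13, or 9.14 and 9.93 per 100 kb, all in the gene body. The strongest, 128.2 kb into the gene and printed above, had a fold of 14.1 for HOXA13 and 14.5 for HOXD13, rank 223 of 66761 and rank 129 of 52660. It overlapped no region of the 6 samples. None of the HOX13 regions of Pbx3 overlapped H3K27ac, and 1 in each list overlapped a PFL H3K27me3 region.

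**Figure D3:**
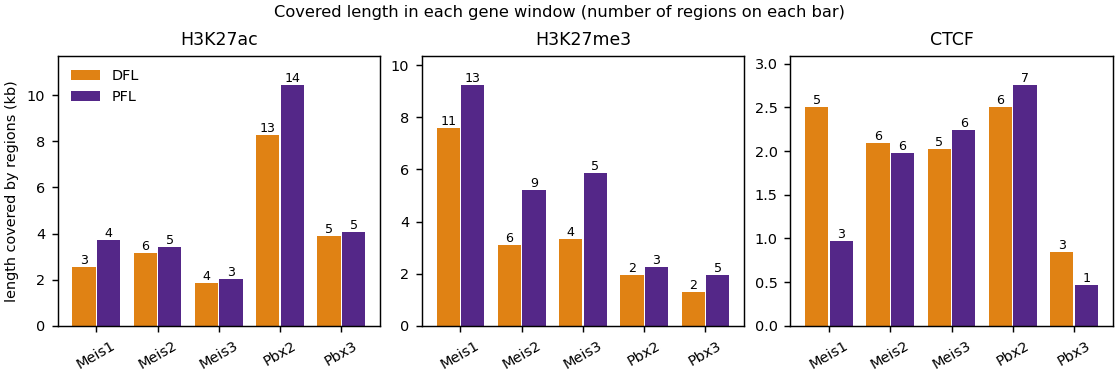
Length covered by called regions in each gene window in kb, with DFL to the left of PFL and the number of regions on each bar, for H3K27ac, H3K27me3 and CTCF. Covered length is lower in DFL for all 5 genes for H3K27ac and H3K27me3, which is also the direction of the whole lists, and the CTCF bars of Meis1, Meis2 and Pbx3 are higher in DFL.

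Over the 5 windows the DFL share of covered H3K27ac ran between 40.6% for Meis1 and 49.1% for Pbx3, with a median of 47.7%, against a median of 46.8% over 17074 genes. None of the 5 reached a difference of 1.5 times in either direction. Over all genes tested 3.17% did so in DFL and 16.9% in PFL. For H3K27me3 the share ran between 36.3% for Meis3 and 46.1% for Pbx2, with a median of 40.1%, against 41.5% over 8164 genes. Meis2 and Meis3 were at least 1.5 times higher in PFL, 2 of 5 genes, and none in DFL, where the background over all genes was 42.9% in PFL and 1.03% in DFL. By covered length, then, the 5 genes lay near the background of the lists for both marks.

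**Figure D4:**
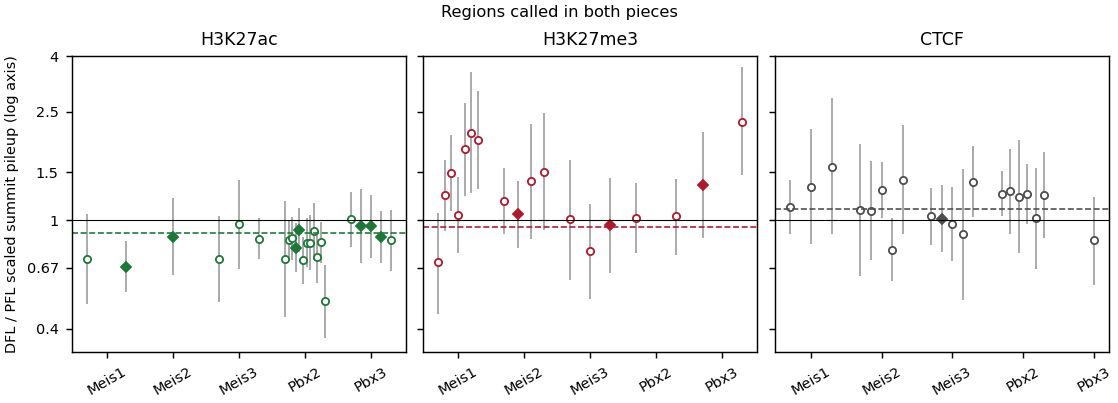
DFL to PFL ratio of scaled summit pileup for each region called in both pieces, on a log axis, by gene and mark, with 95% counting intervals. Filled diamonds lie within 2 kb of a start of the gene, open circles elsewhere, and the dashed line is the genome-wide median of the mark. The H3K27ac points lie mostly under 1 on this scaling, with Meis1 lowest among the promoters, and the highest H3K27me3 points are in Meis1 and Pbx3.

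Among regions called in both pieces, 22 of 23 H3K27ac pairs in the windows had a ratio under 1, with a median of 0.845, where 68.1% of all shared H3K27ac regions were under 1. Most of the 23 lay outside the 5 genes and their promoters, chiefly in the Pbx2 window, so the count describes windows more than genes. Scaled by the median pileup of shared regions instead, a setting added after the values were seen, 17 of the 23 were under 1, with a median of 0.952, against 46.6% of all shared regions. At a limit of 1.5 times, 0 of the 23 were higher in DFL and 1 in PFL, against 5.53% and 13.5% of all shared regions. H3K27me3 went the other way. Of 18 pairs 15 had a ratio over 1, with a median of 1.21, while 60.8% of all shared H3K27me3 regions were under 1. With the other scaling it was 16 of 18, with a median of 1.29, where 48.3% of all shared regions were under 1. At the same limit 5 of the 18 were higher in DFL and 0 in PFL, against a background of 4.95% and 7.2%. The 5 were 3 in Meis1, 1 in Meis2 at 186.2 kb with a ratio of 1.51 (0.918 to 2.47), and 1 in Pbx3. Their fragment counts in DFL and PFL together were between 68 and 111, a range set after the values were seen, and among all 1829 shared regions with sums in that range 7.16% were at least 1.5 times higher in DFL. Neighbouring regions of a gene lie in 1 domain and are not independent of each other, and the 5 had been picked by this limit.

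**Figure D5:**
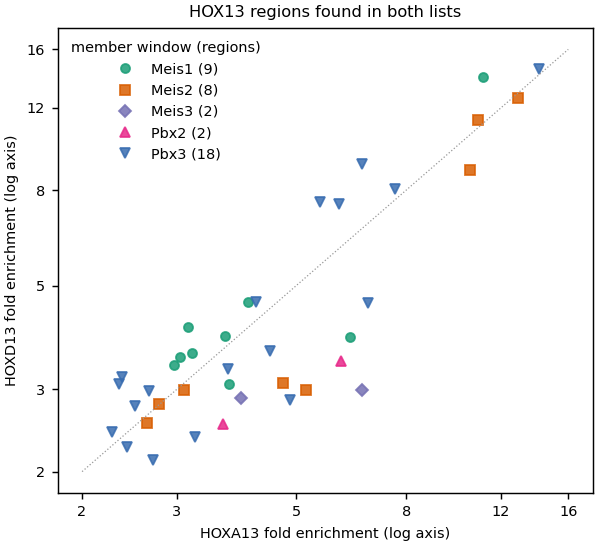
Fold enrichment of HOXA13 and HOXD13, both on log axes, at the 39 regions of the member windows found in both lists, with 1 symbol per gene and the number of regions in the legend. The 9 regions with both folds above 5 belong to Meis1, Meis2 and Pbx3, and the dotted line marks equal folds.

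HOX13 regions over these genes seldom coincided with H3K27ac. Of 60 HOXA13 regions in the 5 windows 4 overlapped H3K27ac of DFL, 6.67% (2.62% to 15.9%), and 3 that of PFL, 5% (1.72% to 13.7%). Over the whole list the shares were 28.4% and 26.7%. For HOXD13 they were 6 of 55 in DFL, 10.9% (5.10% to 21.8%), and 4 in PFL, 7.27% (2.86% to 17.3%), against 30.8% and 28.3%. No region of any sample overlapped 80% of the HOXA13 regions and 78.2% of the HOXD13 regions, where 60.5% and 59.5% of the lists were so. Gene bodies hold few promoters, and the parts of position and gene length in these shares were not tested. Regions of the same gene are not independent, which the intervals do not cover. Both factors were called at 39 regions, with a median of 39 bp between their summits. Of these 9 had folds above 5 for both, 1 in Meis1, 3 in Meis2 and 5 in Pbx3. The matching shares over the whole HOXA13 and HOXD13 lists are not given here, so these counts do not set the 5 genes apart.

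Seen from H3K27ac, 3 of 6 DFL-only regions of the windows overlapped a HOX13 region, 50% (18.8% to 81.2%), all in Meis2, against 0 of 8 PFL-only regions, 0% (0% to 32.4%). Genome-wide the shares were 32.6% and 12.53%. The DFL-only regions at 196.1 and 196.8 kb into Meis2 overlapped the same HOX13 site and are not independent. Of the shared regions 4 of 25 in DFL, 16% (6.40% to 34.7%), and 5 of 23 in PFL, 21.7% (9.66% to 41.9%), overlapped HOX13, under the genome-wide 40.9% and 41.5%. With the HOX13 summit required to lie inside the region, 1 DFL-only region remained, at the Meis2 promoter. Shared regions made up 80.6% of DFL H3K27ac regions in the windows (63.7% to 90.8%) and 74.2% of PFL ones (56.8% to 86.3%), against 73.3% and 61.9% of the lists. For H3K27me3 they were 84% of DFL regions and 51.4% of PFL regions, against 91.0% and 56.0%, and for CTCF 80% and 87.0%, against 88.7% and 91.8%. The genome-wide share for CTCF in DFL lay within the window interval of 60.9% to 91.1%.

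The strongest shared CTCF site of each window is shown because all 5 genes had a CTCF site called in both pieces. Over the whole lists 88.7% of DFL and 91.8% of PFL CTCF regions were shared, so having such a site does not set these genes apart. Each sequence is the summit base with 50 bases on each side, taken from the piece with the higher fold, in the direction of the gene. Capitals mark GGNGGCAG, letters of the CTCF consensus, and AGNNGGC, which overlaps them and was added after the sequences had been seen, on either strand.
Meis1 CTCF site, chr11:19024575-19024675, minus strand: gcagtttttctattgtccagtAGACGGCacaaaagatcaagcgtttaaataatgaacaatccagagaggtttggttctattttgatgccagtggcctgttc
Meis2 CTCF site, chr2:116101380-116101480, minus strand: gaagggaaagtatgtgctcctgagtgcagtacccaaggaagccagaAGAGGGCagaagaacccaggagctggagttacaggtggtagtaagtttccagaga
Meis3 CTCF site, chr7:16153709-16153809, plus strand: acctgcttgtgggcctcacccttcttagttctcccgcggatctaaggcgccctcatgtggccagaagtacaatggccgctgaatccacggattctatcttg
Pbx2 CTCF site, chr17:34555618-34555718, plus strand: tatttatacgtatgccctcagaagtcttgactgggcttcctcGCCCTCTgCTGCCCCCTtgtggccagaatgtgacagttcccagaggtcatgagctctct
Pbx3 CTCF site, chr2:34249535-34249635, minus strand: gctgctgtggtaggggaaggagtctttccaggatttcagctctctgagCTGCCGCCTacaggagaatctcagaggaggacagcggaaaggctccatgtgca
GGNGGCAG was found at Pbx2 and Pbx3, both times on the strand opposite to the gene, and AGNNGGC at all but Meis3. Over the DFL and PFL CTCF lists GGNGGCAG was in 11.5% and 11.6% of such windows and AGNNGGC in 66% and 66.3%.

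Promoter sequences of 4 members were found in the RefSeq table of GRCm38.p6. They are given for the 250 bases before the RefSeq start of Meis1, whose H3K27ac was lower in DFL, and of Pbx2. At Pbx2 H3K27ac was nearly even and the promoter carried no H3K27me3. The RefSeq start can differ from the annotated 5′ end used for the distances above. The Pbx2 stretch lies downstream of that end, which is at chr17:34591266. The Meis2 and Meis3 entries also lie inside their genes by that measure. Capitals mark CG dinucleotides, which are dense in CpG islands.
Meis1 promoter, chr11:19018970-19019219, minus strand: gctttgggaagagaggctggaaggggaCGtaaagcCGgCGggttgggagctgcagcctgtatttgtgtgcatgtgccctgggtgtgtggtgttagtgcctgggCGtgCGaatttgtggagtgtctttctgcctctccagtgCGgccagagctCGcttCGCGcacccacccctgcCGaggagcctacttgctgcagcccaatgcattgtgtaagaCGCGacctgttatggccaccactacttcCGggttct
Pbx2 promoter, chr17:34592009-34592258, plus strand: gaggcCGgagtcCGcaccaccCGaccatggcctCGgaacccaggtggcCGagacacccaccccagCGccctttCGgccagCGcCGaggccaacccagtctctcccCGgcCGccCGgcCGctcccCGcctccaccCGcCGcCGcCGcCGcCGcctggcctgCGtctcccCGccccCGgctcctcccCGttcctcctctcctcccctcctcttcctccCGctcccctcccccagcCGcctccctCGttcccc
With the 50 bases after the start included, the Meis1 promoter held 15 CG and had a GC content of 58.3%, and that of Pbx2 held 29 CG at 76%. Meis3, marked by H3K27me3, had 21 CG at 66.7% and Meis2 13 CG at 51%. The median over 32851 promoters was 7 CG and 52.7%. Of the full HOX13, MEIS and PBX-HOX motifs the 4 promoters held a single match, CAATAAA in Meis2, which is in 4.6% of all promoters. TGACAG was in 19.2% and TGATNNAT in 8.85% of all promoters.

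The other TALE genes and the genes of retinoic acid signalling were compared in the same way by covered length, beside the 3.17% of all genes past the limit for H3K27ac in DFL and the 16.9% in PFL. Of 6 other TALE genes, Pknox2, a relative of the MEIS genes, had 6247 bp of H3K27ac in DFL against 14948 bp in PFL, 1 gene past the limit of 1.5 times, and Pbx4, Pknox1, Tgif1, Tgif2 and Mkx did not pass it. All 6 promoters carried H3K27ac in both pieces, as did 58.0% of promoters over all genes. Of 11 retinoic acid genes 9 had enough H3K27ac to be compared. Rarb, a retinoic acid receptor, had 5914 bp in DFL against 9249 bp in PFL, and Aldh1a2, which makes retinoic acid, had 1303 bp against 813 bp. The other 7 did not reach the limit, and with counts this small neither list can be set apart from all genes. The neighbours Cyp26a1 and Cyp26c1, which break retinoic acid down and share a window, had 804 bp in DFL and 0 bp in PFL, under the minimum of 1 kb. For H3K27me3, 3 of 4 TALE genes tested and 5 of 8 retinoic acid genes were at least 1.5 times higher in PFL and none in DFL, beside the 42.9% and 1.03% over all genes.

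By covered length over the 8 lists, on a scale of log2(bp + 500), the genes most like each member were Lmx1a (distance 1.09) and Tshz3 (1.31) for Meis1, Prdm6 (0.355) for Meis2, Tubb4a (0.384) and 2810459M11Rik (0.546) for Meis3, Mrpl12 (0.363) and Tpm1 (0.396) for Pbx2, and Epha3 (1.5) and Egfem1 (1.54) for Pbx3. Epha3 resembled Pbx3 in its HOX13 cover, with 15932 bp for HOXA13 and 11157 bp for HOXD13, where Pbx3 had 11325 bp and 8441 bp. Lmx1a resembled Meis1 in H3K27me3, with 5069 bp in DFL and 8625 bp in PFL, where Meis1 had 7582 bp and 9243 bp.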

How the data were processed

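ChIP-seq peak lists were used for 6 samples, with groups taken from the sample titles, and for 2 HOX13 experiments outside the series. According to the study's methods, reads were trimmed with cutadapt, aligned to mm10 with Bowtie, filtered with SAMtools and called with MACS2, each library alone and with no input control. The deposited columns are a fold enrichment (a ratio of summit pileup to local background), its −log10 p and −log10 q, and the summit offset, which was read as a score from the peak start. The weakest deposited peaks were near a q-value of 0.05.

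Summit pileup and background were solved from fold and −log10 p for at least 99.8% of peaks in each list (tolerance 0.002) and checked on simulated data. Overlapping peaks were merged. Regions were called shared where 1 bp or more fell in a region of the other piece. A promoter was 2 kb around any basic GENCODE transcript start. Windows were the gene body and 50 kb around the 5′ end. Genes covered by at least 1 kb in DFL and PFL together were compared. The lists give no read totals. Motifs were searched on both strands. Members, gene lists and limits were chosen with earlier results of these data known. The named regions were the strongest of each list and every promoter region, and others named were chosen after their values were seen. Shares carry Wilson intervals and pileups exact Poisson intervals, computed with Python 3.11.15, SciPy 1.17.1 and pandas 2.3.3. No column of another sample was used. A second gene resembling Meis2 is not reported here.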

Additional observations from a re-analysis of the deposited data

How the results depend on the processing

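Other thresholds, windows, scalings and overlap rules gave 56 further shares of covered length and 45 further values of other kinds. The shares rest on few regions, with intervals too wide to tell whether a setting changed them, and the largest moves were 15.1 points for Pbx3 and 11.97 points for Meis1 H3K27me3 with the longer list cut to the size of the shorter. Of the 45 values 41 stayed inside the interval, or within 1.5 times the count, of the value given in the text. Most of the other promoter widths picked the same region and returned the same ratio, so the count of 41 is a weak check. The DFL share of covered length was under 50% for all 10 combinations of gene and mark. Under the alternatives 5 of 56 shares were at or over 50%, for Meis1 and Pbx3 H3K27me3 (up to 57.0% and 55.1%) and for Meis2, Meis3 and Pbx3 H3K27ac (up to 54.5%, 57.1% and 50%). With 5 kb in place of 2 kb as the promoter, the ratio of the Pbx3 promoter for H3K27me3 was 2.30 in place of 1.35, because another region then was the strongest. With the HOX13 summit required inside the region, 1 in place of 3 DFL-only H3K27ac regions held HOX13. With a region required in both HOX13 lists, 2 in place of 4 shared regions in DFL and 2 in place of 5 in PFL did. With the gene body joined to 2 kb or 25 kb in place of 50 kb on each side of the 5′ end, 2 of the 10 combinations had no region in either piece and gave no share. No paired analysis was possible because each mark and piece had 1 library. Depth limits H3K27me3 most, and a place without a call is below the peak caller's threshold, not free of the mark.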
